A study of Mus musculus with 3 samples.

Results

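Border macrophages, the resident macrophages of the meninges, take up proteins, lipids and cell debris through receptors on their surface. The receptors described here were 7 genes chosen by name, *Mrc1*, *Cd163*, *Lyve1*, *Folr2*, *Stab1*, *Msr1* and *Cd36*, out of the 27998 genes counted. They were read in the 7057 meningeal cells that held at least 500 UMIs (unique molecular identifiers, each marking 1 captured RNA molecule), under 8.3% mitochondrial UMIs and a number of genes within the limits the study used. Cells came from male C57BL/6J mice, 10 to 12 weeks old. HC replicates 1 and 2 were unstressed home cage controls and CSD replicate 1 came from stress-susceptible mice after 14 days of chronic social defeat. Each library was a pool of 4 mice, so animals cannot be told apart and p-values measure the spread between pools. Live nucleated singlets were sorted after enzymatic digestion of the meninges, and the treatment cannot be told apart from whatever else was particular to the lone CSD pool.

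The receptors differ in what they bind. *Mrc1* encodes the mannose receptor, a C-type lectin for mannose-ending sugars. *Cd163* encodes the receptor for haptoglobin-hemoglobin complexes. *Lyve1* encodes a hyaluronan receptor that also marks lymphatic endothelium, and *Folr2* encodes folate receptor beta. *Stab1* (stabilin-1), *Msr1* (class A scavenger receptor) and *Cd36* (class B scavenger receptor, a carrier of fatty acids) take up modified lipoproteins and other altered ligands. In brain border tissues, macrophages with high LYVE1 and CD163 and low MHC class II (MHCII) are commonly told apart from macrophages with high MHCII, which present antigen.

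All 7 genes are protein-coding. In the mouse genome build GRCm38 (GENCODE vM21), *Mrc1* lies on the plus strand of chromosome 2 from 14229392 to 14332057 and *Cd163* on the plus strand of chromosome 6 from 124304656 to 124330527. The other genes are on the minus strand: *Lyve1* and *Folr2* on chromosome 7 from 110850607 to 110863239 and from 101839988 to 101857194, *Stab1* on chromosome 14 from 31139013 to 31168641, *Msr1* on chromosome 8 from 39581685 to 39642673 and *Cd36* on chromosome 5 from 17781690 to 17888801.

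RefSeq promoters (GRCm38.p6) were matched for 5 of the 7 genes, *Folr2* with 2 start sites. The 250 bases before the start are printed for *Mrc1*, *Stab1* and *Folr2*, whose levels over cell types resembled each other (Pearson coefficients of 0.80 to 0.89 over 20 cell types). Capitals mark GAGGAA, the core bound by the macrophage factor PU.1, or TGCTGA, part of the element bound by MAF factors, or their reverse complements TTCCTC and TCAGCA:

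Mrc1 (chr2:14229164-14229413, plus strand): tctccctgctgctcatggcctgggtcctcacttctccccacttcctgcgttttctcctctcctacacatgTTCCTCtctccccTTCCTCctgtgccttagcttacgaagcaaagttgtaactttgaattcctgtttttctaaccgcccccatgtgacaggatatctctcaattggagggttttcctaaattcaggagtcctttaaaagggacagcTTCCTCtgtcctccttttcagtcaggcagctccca

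Stab1 (chr14:31168642-31168891, minus strand): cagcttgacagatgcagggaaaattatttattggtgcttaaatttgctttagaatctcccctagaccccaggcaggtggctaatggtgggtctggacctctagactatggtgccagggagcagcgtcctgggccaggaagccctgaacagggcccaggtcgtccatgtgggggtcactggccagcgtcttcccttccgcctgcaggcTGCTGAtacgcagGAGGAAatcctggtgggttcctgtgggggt

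Folr2, upstream start (chr7:101857191-101857440, minus strand): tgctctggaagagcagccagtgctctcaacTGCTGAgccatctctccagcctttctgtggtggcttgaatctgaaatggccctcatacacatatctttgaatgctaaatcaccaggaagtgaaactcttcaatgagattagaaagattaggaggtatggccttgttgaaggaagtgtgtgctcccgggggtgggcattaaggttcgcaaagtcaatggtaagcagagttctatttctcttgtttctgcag

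Folr2, downstream start (chr7:101845332-101845581, minus strand): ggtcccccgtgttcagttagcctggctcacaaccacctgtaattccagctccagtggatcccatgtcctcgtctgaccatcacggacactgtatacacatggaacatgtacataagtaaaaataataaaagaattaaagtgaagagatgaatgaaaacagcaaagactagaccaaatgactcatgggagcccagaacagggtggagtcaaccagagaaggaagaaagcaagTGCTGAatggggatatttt

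GAGGAA occurred 3 times before *Mrc1* and once before *Stab1*, and in 2 of the 6 promoters of these receptors, against 23.3% of all 32851 mouse promoters of the same length. TGCTGA occurred in 4 of the 6 promoters (*Stab1*, *Cd36* and both *Folr2* starts), against 16.1% of all promoters. The AP-1 motif TGANTCA occurred in 1 of the 6 (the downstream *Folr2* start; 6.75% of all promoters), and TATAAA in 0 of the 6 (12.4% of all promoters). These are matches of letters and no measure of binding.

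Cell types were found by clustering in which the 7 receptors were left out. The border macrophage-like cells, 576 of the 7057 cells, formed 2 clusters. The cluster called here the low MHCII class led by fold with *Pf4*, *Ccl7* and *Dab2*, along with 4 of the receptors left out, and the high MHCII class led with *Retnla*, *H2-Eb1* and *Ms4a7*. Under 4 of the other clusterings, 42 to 67 cells led by *Retnla* and *Lyz1* were instead named monocyte-like. The 211 cells of the low MHCII class carried 9980 CPM (UMIs per 1000000 UMIs of the same cells) of *H2-Aa*, *H2-Ab1*, *H2-Eb1* and *Cd74* together and the 365 cells of the high MHCII class 58242 CPM. In the low class *Pf4* stood at 3124 CPM, *Cbr2* at 518 CPM and *Ms4a7* at 756 CPM. Over all cells of other types the same genes stood at 49.9 CPM, 21.9 CPM and 14.8 CPM. Total UMIs ranged from 8814690 to 10206236 per library and median UMIs per kept cell from 2212 to 2503. Barcodes of at most 100 UMIs held 24.1% of the UMIs of HC replicate 2, against 7.87% in HC replicate 1 and 5.48% in CSD replicate 1. Of the 576 cells, 5 carried a barcode that also occurred in another library.

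The libraries held very different numbers of these cells. From here on, 3 values in a row follow the order HC replicate 1, HC replicate 2, CSD replicate 1. Border macrophage-like cells made up 13.8% (358 cells), 4.64% (79 cells) and 5.04% (139 cells) of the kept cells. The low MHCII class counted 157, 15 and 39 of them, or 43.9%, 19.0% and 28.1%. The low class thus rested on 464638, 38867 and 81072 UMIs. A receptor absent from the low class of HC replicate 2 could have stood at up to 77.2 CPM (3 counts).

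With the 3 libraries pooled, to which HC replicate 1 gave 358 of the 576 cells, border macrophage-like cells were 8.16% of all cells and held 75.0% of the *Lyve1* UMIs, 74.0% of *Mrc1*, 69.3% of *Cd163*, 65.2% of *Folr2* and 60.1% of *Stab1*. For *Msr1* and *Cd36* they held 37.0% and 35.7%. The shares differed between libraries. They were 75.7%, 62.2% and 70.3% for *Mrc1*, 79.4%, 70.6% and 55% for *Lyve1*, and 67.3%, 60.7% and 52.9% for *Folr2*. In HC replicate 2 these cells held under 50% of *Cd163* (73.0%, 27.3% and 63.0%) and of *Stab1* (62.4%, 37.1% and 55.9%). Those shares of HC replicate 2 rest on few counts, 3 of 11 UMIs for *Cd163* and 13 of 35 UMIs for *Stab1*. *Msr1* (53.1%, 16.7% and 22.2%) and *Cd36* (53.6%, 13.2% and 13.9%) had the lowest shares of the 7 in each library. Monocyte-like cells held 27, 18 and 40 UMIs of *Msr1* against 51, 5 and 14 in border macrophage-like cells, so that they held fewer in HC replicate 1 and more in the other libraries. The low MHCII class, 2.99% of all cells, held 71.9% of all *Lyve1* UMIs and 56.5% of all *Folr2* UMIs.

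**Figure D1:**
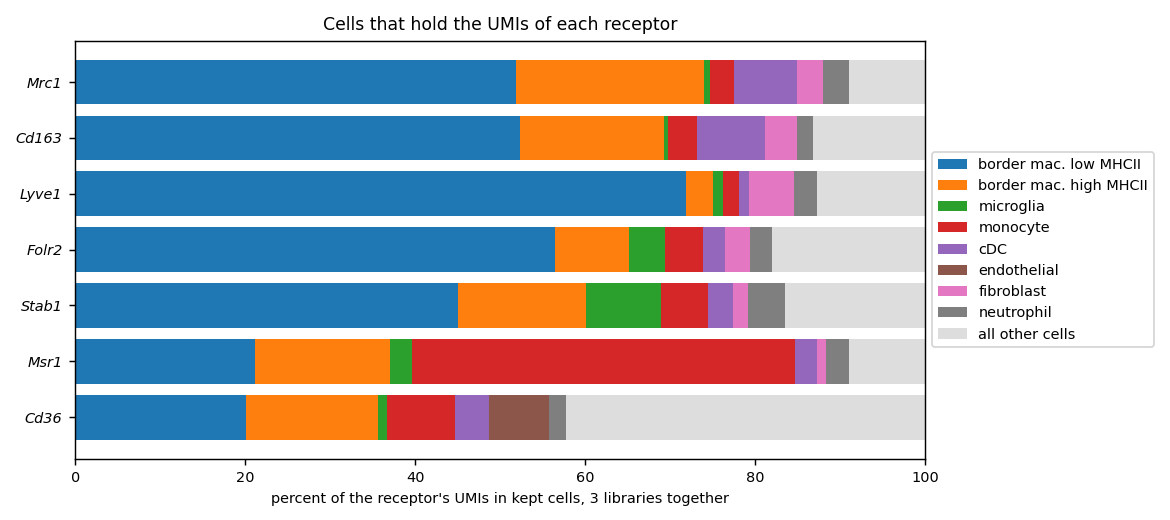
Share of each receptor's UMIs (x axis, percent, 3 libraries together) held by the cells of each type (colors), with 1 bar per receptor. Pooled in this way, border macrophage-like cells hold between 60.1% and 75.0% of the UMIs of 5 receptors, 37.0% for *Msr1* and 35.7% for *Cd36*. In single libraries the shares are as low as 27.3% for *Cd163* and 37.1% for *Stab1* (HC replicate 2, 3 of 11 and 13 of 35 UMIs).

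The level of each receptor by cell type is given as CPM within that type and library, with the mean ± SD over 3 libraries. Since the classes come from clustering of the same cells, the levels are descriptions without a test. For the mannose receptor *Mrc1*, the low MHCII class stood at 745, 283 and 752 CPM (593 ± 269, SD, n = 3). The high MHCII class stood at 170, 55.9 and 172 CPM (133 ± 66.3), and cDC-like cells, conventional dendritic cells, followed at 36.1 ± 17.8 CPM. Both steps were larger than the larger SD of the pair and held in all 3 libraries. The steps from cDC-like to fibroblast-like cells (16.5 ± 23.3 CPM) and from these to erythroid-like cells (12.1 ± 20.9 CPM) were smaller than the larger SD.

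*Cd163*, the hemoglobin scavenger, stood in the low class at 220, 77.2 and 74.0 CPM. The last pair of values rested on 3 and 6 UMIs, with exact Poisson 95% intervals of 15.9 to 226 CPM and 27.2 to 161 CPM (these intervals cover counting error only). In the high class *Cd163* stood at 35.9 CPM, 0 of 214584 UMIs and 39.4 CPM. A count of 0 there allows up to 14.0 CPM. The mean of the low class (124 ± 83.1 CPM) exceeded that of the high class (25.1 ± 21.8 CPM) by more than 1 SD, while the high class and the next cell type did not differ by 1 SD.

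*Lyve1* showed the widest gap between the MHCII classes. Its level was 385, 901 and 234 CPM in the low class, highest in the library with the fewest such cells, against 8.62, 4.66 and 10.7 CPM in the high class. The high class did not stand above fibroblast-like cells (15.6 ± 10.8 CPM) or olfactory neuron-like cells (8.06 ± 10.1 CPM). The 2 highest cell types, the low class (507 ± 349 CPM) and fibroblast-like cells, differed by more than the larger SD, and the low class was higher in all 3 libraries. Since *Lyve1* is also a gene of lymphatic vessels, 5 lymphatic endothelial markers were summed in the low class: they stood at 2.15 CPM, 51.5 CPM and 0 CPM, with 4, 4 and 5 of the 5 genes at 0.

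*Folr2* had the same order of libraries in the low class as *Lyve1*. The low class stood at 321, 386 and 136 CPM (281 ± 130), the high class at 25.9, 9.32 and 25.1 CPM (20.1 ± 9.34), and microglia-like cells at 14.2 ± 8.60 CPM. The low class lay above the high class in all 3 libraries, by 2.01 times the larger SD. High MHCII cells and microglia-like cells did not differ beyond their SD.

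*Stab1* was the receptor that microglia-like cells shared. It stood at 590, 180 and 444 CPM in the low class, at 106, 28.0 and 93.2 CPM in the high class, and at 83.9, 57.1 and 81.4 CPM in microglia-like cells. High MHCII cells (75.8 ± 42.0 CPM) and microglia-like cells (74.1 ± 14.8 CPM) differed by less than their SD. Both stood above the next type, T cell-like cells at 15.6 ± 14.7 CPM; the step from microglia-like to T cell-like cells was 3.95 times the larger SD.

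The scavenger receptors *Msr1* and *Cd36* were thinly counted and less bound to these cells. *Msr1* stood at 66.7, 51.5 and 86.3 CPM in the low class, from 31, 2 and 7 UMIs. Monocyte-like cells were close between libraries at 23.4, 22.2 and 24.6 CPM and within the SD of high MHCII cells at 28.7, 14.0 and 25.1 CPM. *Cd36* had its highest mean in endothelial-like cells, where it stood at 588 and 175 CPM in the HC libraries, with 0 UMIs in the 3 such cells of CSD replicate 1. Those values rest on 9 and 5 UMIs from 11 and 19 cells. In the low class it stood at 73.2, 77.2 and 37.0 CPM, no different beyond the SD from erythroid-like cells (62.4 ± 29.8 CPM).

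**Figure D2:**
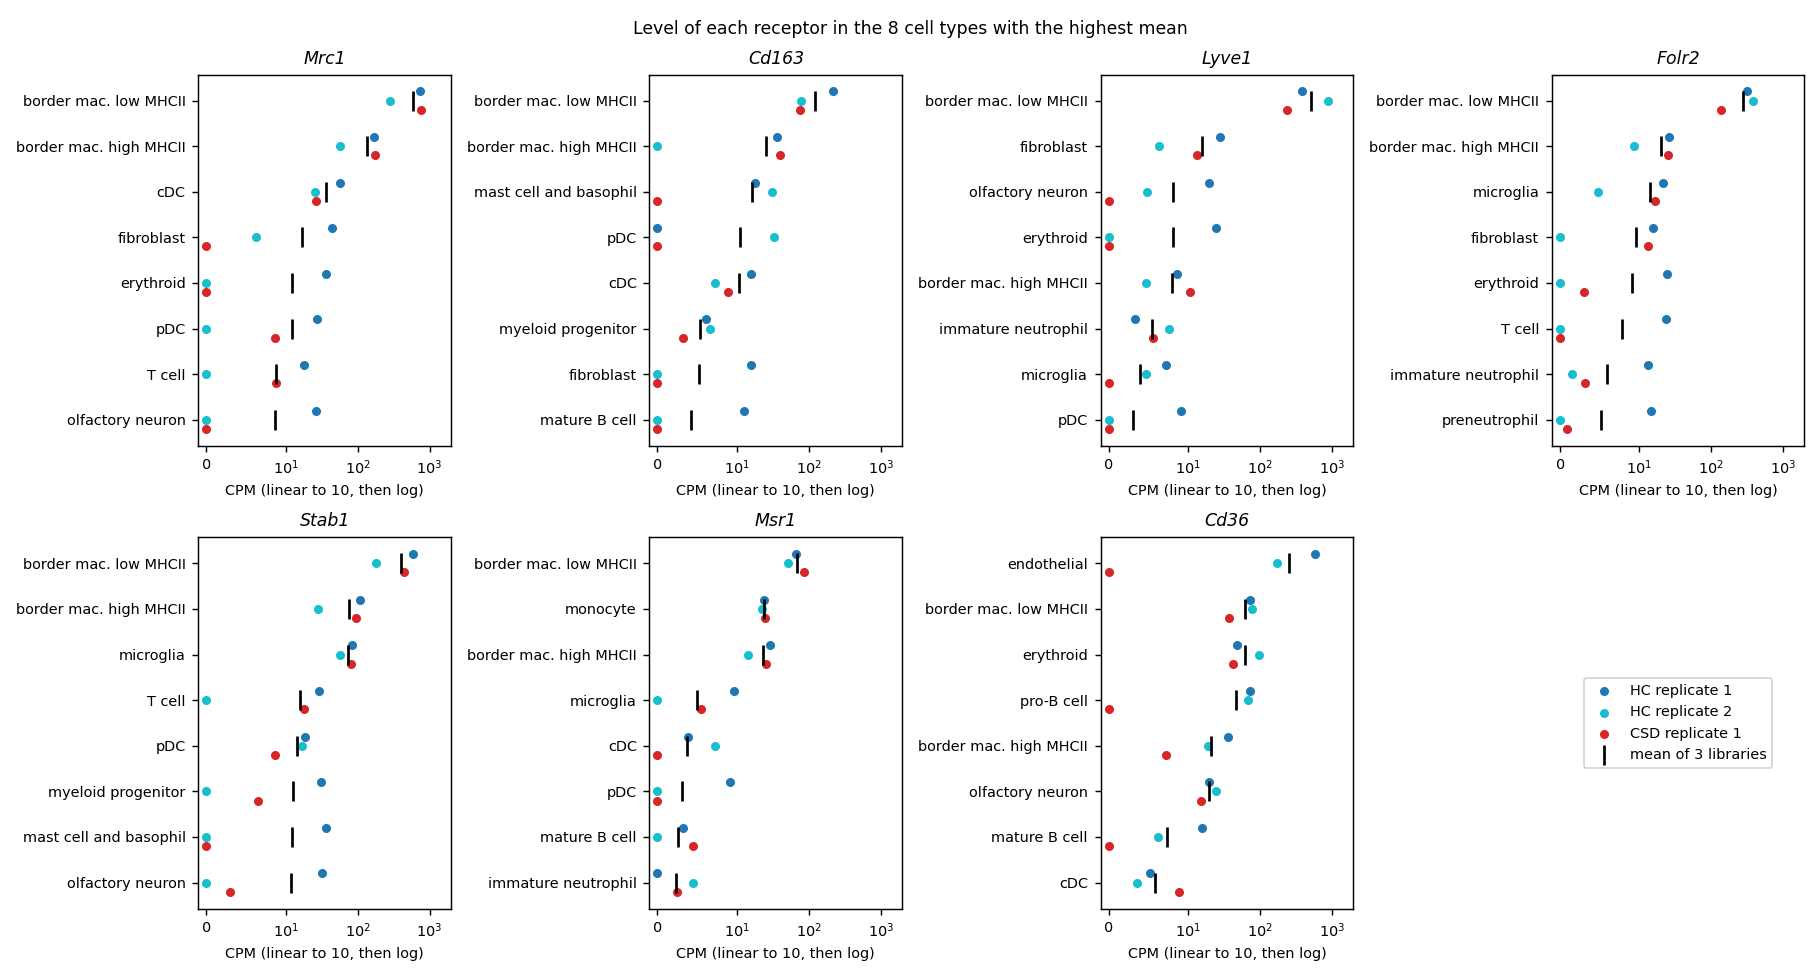
CPM of each receptor (x axis, linear to 10 and then log) in the 8 cell types with the highest mean, 1 panel per receptor; points are libraries and black ticks the mean of 3. The low MHCII class leads in 6 of 7 panels, and endothelial-like cells lead for *Cd36*.

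Within border macrophage-like cells, all 7 receptors were higher in the low than in the high MHCII class in each of the 3 libraries. Among the 8399 genes with at least 10 UMIs in these cells, 15.5% were so. The ratio of low to high was 4.39, 5.06 and 4.37 for *Mrc1*, although HC replicate 2 had the lowest level in both classes. For *Stab1* it was 5.54, 6.44 and 4.77. For *Lyve1* it was 44.7 in HC replicate 1, from 179 and 6 UMIs, and the other libraries held 1 and 3 UMIs in the high class, too few for a ratio. In HC replicate 1 *Msr1* and *Cd36* had the smallest ratios of the 7, 2.32 and 2.04. In CSD replicate 1 the ratio of *Msr1* was 3.44, from 7 UMIs in either class. *Cd36* in HC replicate 2 had a ratio of 4.14, from 3 and 4 UMIs, with Poisson intervals that overlapped (15.9 to 226 CPM in the low and 5.08 to 47.7 CPM in the high class). The intervals of the classes also overlapped for *Cd36* in the other libraries. For *Cd163* and *Msr1* they overlapped in HC replicate 2 and CSD replicate 1. The ratio of *Folr2* was 12.4 in HC replicate 1 and 5.41 in CSD replicate 1, and that of *Cd163* was 6.11 and 1.88; in HC replicate 2 the high class held too few UMIs of either for a ratio.

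**Figure D3:**
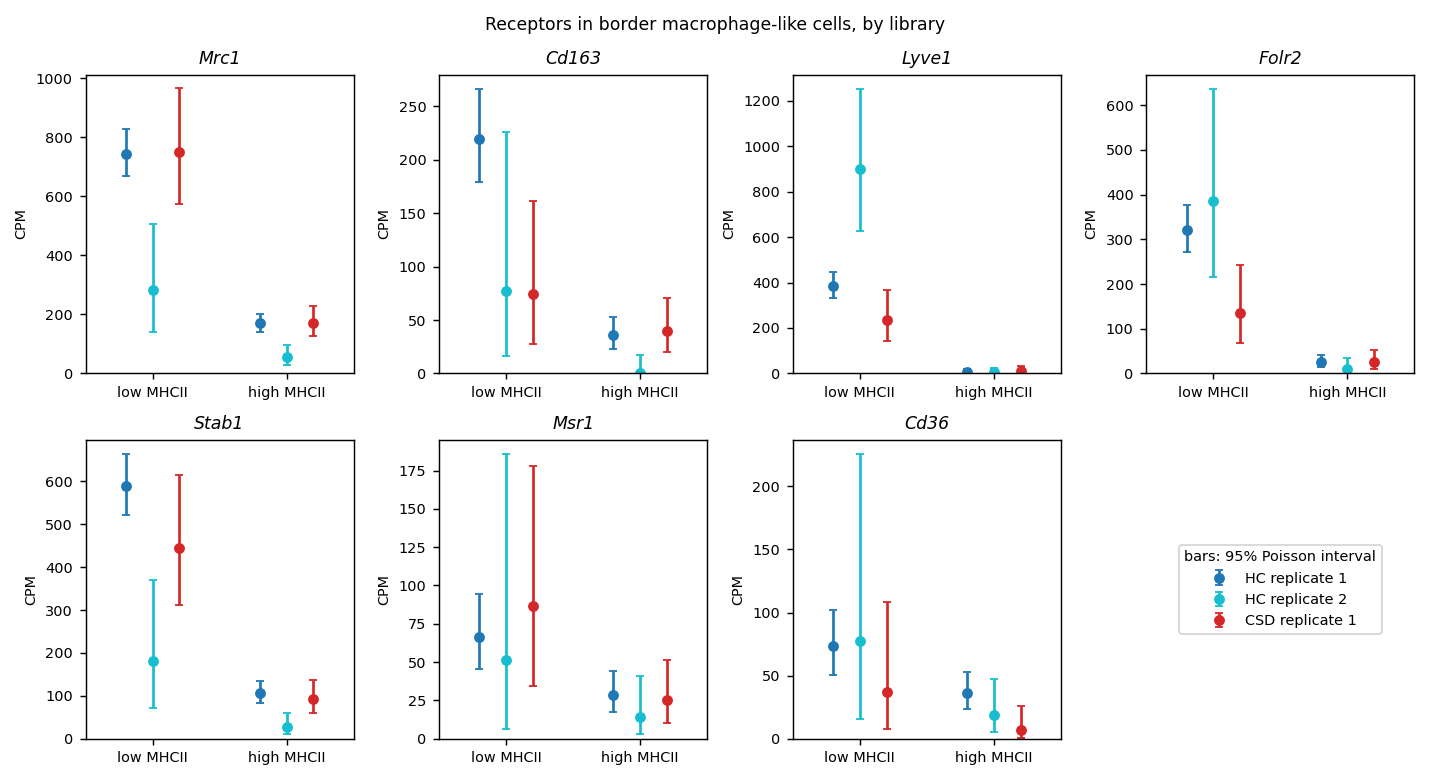
CPM of each receptor (y axis, from 0) in the low and high MHCII class by library, with exact Poisson 95% intervals. All 7 receptors are higher in the low class in every library, and the intervals of HC replicate 2, with 15 low MHCII cells, are wide. The intervals of the classes overlap for *Cd36* in every library and for *Cd163* and *Msr1* in HC replicate 2 and CSD replicate 1.

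Barcodes with too few UMIs for a cell also held these receptors. In barcodes of at most 100 UMIs *Mrc1* stood at 84.8, 13.2 and 48.3 CPM and *Stab1* at 80.9, 10.8 and 30.4 CPM, lowest in HC replicate 2 as in both MHCII classes. *Lyve1* there stood at 21.8, 5.64 and 16.1 CPM and *Folr2* at 34.7, 5.17 and 5.36 CPM, also lowest in HC replicate 2, the library in which their low class levels were highest. The summed level of 10 neutrophil markers in the low class was 40139, 24520 and 58405 CPM with 0, 3 and 1 of the genes at 0, and from these and 6 markers of immature neutrophils free RNA was put at 43.7%, 24.3% and 44.0% of the UMIs of the low class. After the expected free RNA was subtracted, *Mrc1* in the low class stood at 1220, 358 and 1215 CPM and *Lyve1* at 649, 1138 and 371 CPM. HC replicate 2 was still lowest for *Mrc1* and highest for *Lyve1*, while HC replicate 1 and CSD replicate 1 traded places for *Mrc1*. The part of free RNA in the differences between libraries was not tested.

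Shares of cells with a UMI depend on depth, so every cell was thinned at random to 500 UMIs, which left out no cell. In the low class, *Mrc1* was then found in 30.6%, 13.3% and 30.8% of cells. The exact Clopper-Pearson 95% interval was 23.5% to 38.4% in HC replicate 1 and 1.66% to 40.5% in HC replicate 2. Lymphocyte-like cells, which should lack these genes, had 0.222%, 0% and 0% (0 of 352 and 0 of 424 cells, which allows up to 0.852% and 0.708%). Without thinning the low class had 72.0%, 26.7% and 71.8% at median depths of 2886, 2466 and 1978 UMIs, and lymphocyte-like cells 2.22%, 0.284% and 1.42% at median depths of 1870, 1856.5 and 1680 UMIs. In HC replicate 1 and CSD replicate 1 *Stab1* was found after thinning in 25.5% and 20.5% of low MHCII cells, against 1.11% and 0.236% of lymphocyte-like cells, and without thinning in 72.6% and 46.2% against 4.21% and 0.472%.

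*Lyve1* was found after thinning in 11.5%, 20% and 15.4% of the low class, and in 0% of lymphocyte-like cells of each library. Unthinned shares were 35.7%, 33.3% and 25.6%, against 0%, 0.852% and 0% of lymphocyte-like cells. *Folr2* was found after thinning in 10.8% and 5.13% of low MHCII cells of the larger libraries, and in 0 of the 15 cells of HC replicate 2 (which allows up to 20%), although the average over all possible draws was 9.72% there. *Cd163* was found in 10.8%, 0% and 2.56% of the low class. In HC replicate 1 and CSD replicate 1, all 7 receptors had a higher thinned share in the low class than in lymphocyte-like cells. In all 3 libraries this held for 2 of them, *Mrc1* and *Lyve1*, in the draw made. By the average over all possible draws it held for all 7 in all 3 libraries, in HC replicate 2 for example with 10.4% against 0.158% for *Stab1* and 3.39% against 0% for *Cd163*.

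Few cells held several receptors at that depth. Of the 211 low MHCII cells thinned to 500 UMIs, 91 held none of the 7, 71 held 1, 34 held 2, 13 held 3 and 2 held 5. The mean was 0.962, 0.333 and 0.821 receptors per cell. High MHCII cells had 0.224, 0.0938 and 0.18, microglia-like cells 0.0699, 0.0430 and 0.0753, and lymphocyte-like cells 0.0310, 0.0114 and 0.00472. At least 2 receptors were found in 23.2% of low and 2.19% of high MHCII cells of the pooled libraries, and in none of the 372 microglia-like cells. By library the low class had 24.8%, 0% (0 of 15 cells) and 25.6%, and the high class 2.49%, 1.56% and 2%.

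**Figure D4:**
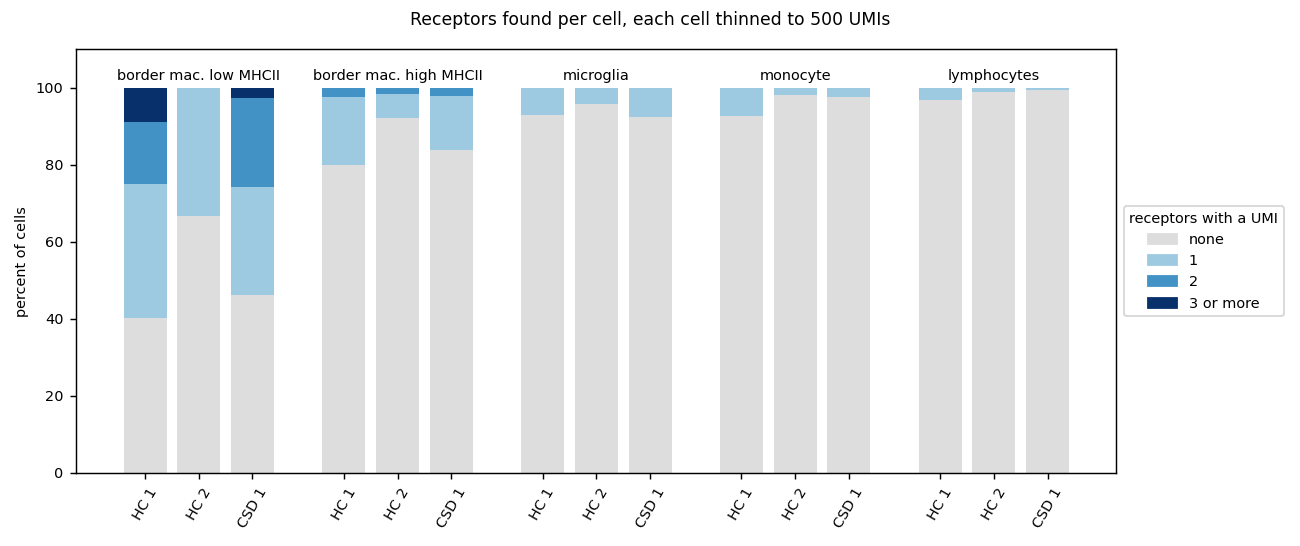
Percent of cells (y axis) in which none, 1, 2 or at least 3 of the 7 receptors were found after thinning to 500 UMIs, by cell type and library. Cells with at least 2 receptors make up 23.2% of the low MHCII class and 2.19% of the high MHCII class over the 3 libraries. In HC replicate 2 they make up 0 of the 15 low MHCII cells.

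Across single cells of the low class, unthinned levels of the 21 pairs of receptors had Pearson coefficients between -0.04 and 0.39 (log scale, 211 cells that share 3 libraries and differ in depth; no test). The highest were 0.39 for *Lyve1* with *Folr2* and 0.33 for *Mrc1* with *Stab1*. With the summed MHCII genes, the coefficients over all 576 cells ran from -0.13 for *Cd36* to -0.49 for *Stab1*, and within the low class from -0.03 for *Cd36* to -0.26 for *Lyve1*.

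The genes that resembled each receptor were sought over 20 cell types, by the Pearson coefficient of log2(CPM + 1) among 9472 genes with at least 100 UMIs; the cell types share libraries and differ in depth, and no test was made. *Folr2* was among the 3 nearest genes of both *Lyve1* and *Mrc1*, at 0.89 for *Folr2* with *Lyve1* and 0.89 for *Folr2* with *Mrc1*. *Ccl24*, a chemokine that attracts eosinophils, was nearest to both *Lyve1* (0.92) and *Folr2* (0.91), and its mean was 117 CPM in the low and 9.34 CPM in the high class. *Adam33*, a membrane metalloprotease gene, followed *Folr2* for *Lyve1* at 0.86. *Mrc1* was nearest to *AI607873* (0.91) and *Axl* (0.89), a receptor for phosphatidylserine-bound ligands. *Stab1* was nearest to *Ccl2* (0.92), a chemokine for monocytes, *P2ry6* (0.91), a nucleotide receptor, and *Fcgr1* (0.90), an IgG Fc receptor. *Cd163* was nearest to *Rab7b* (0.84), *Tlcd2* (0.78) and *Clec4n* (0.77), the lectin receptor dectin-2, and *Msr1* to *AI607873* (0.88), *Mnda* (0.85) and *Ms4a6c* (0.84). *Cd36* had the weakest resemblance, to *Gapvd1* (0.76), *Parvb* (0.67) and *Gch1* (0.67), and its coefficients with the other 6 receptors ran from -0.16 to 0.29. Among these nearest genes, *Axl*, *Rab7b*, *Tlcd2*, *Mnda*, *Ms4a6c* and *Gch1* had a higher mean in the high than in the low class. The others were higher in the low class. *Axl* stood at 72.6 CPM in the low and 110 CPM in the high class, and *Rab7b* at 86.1 CPM and 100 CPM.

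The question of the design was whether chronic social defeat changed expression in the meninges. No receptor passed an adjusted p of 0.05 between CSD replicate 1 and the HC libraries in border macrophage-like cells, in either MHCII class or in any other cell type tested. UMIs were summed per library and tested by edgeR's quasi-likelihood test on genes seen in over 15% of the cells. With 1 CSD library the spread came from the 2 HC libraries, on the assumption that CSD pools vary as HC pools do. The test pulls the spread of each gene toward that of the other genes tested. The SE of a receptor is thus not its own spread between the HC libraries. In the fit of all border macrophage-like cells 4 of the 7 receptors were tested, and 0 were called, against 0.25% of the 2004 genes tested (5 genes, *Mgp*, *Dcn* and *Sparc* lower and *Ccl12* and *Lrg1* higher in CSD). The 10 fibroblast markers used for naming, with *Mgp* and *Dcn* among them, summed in these cells to 616, 671 and 167 CPM, with 0, 1 and 4 of them at 0. *Sparc* was instead among the 10 microglia markers, which summed to 2040, 2249 and 1971 CPM. Beyond a fit with the expected free RNA subtracted, the part of RNA from other cell types in these calls was not tested. In the same fit 2.89% of genes, and 1 of the 4 receptors, had an unadjusted p under 0.05. DESeq2 called 0 of the receptors in this fit and in those of the MHCII classes and their interaction.

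The CSD library lay between the HC libraries for *Mrc1*, *Stab1* and *Cd163*. The share of all genes that lay between, below or above the HC libraries was not counted in this fit. *Mrc1* stood at 465, 103 and 356 scaled CPM (CPM after TMM scaling of the library sizes), a log2 fold change of 0.21 ± 0.47 (CSD over HC, SE from the F statistic; adjusted p = 0.999). *Stab1* stood at 349, 58.4 and 202 (-0.16 ± 0.53, adjusted p = 0.999) and *Cd163* at 127, 13.5 and 55.5 (-0.71 ± 0.63, adjusted p = 0.999). Without HC replicate 1 these differences were 1.74 for *Mrc1*, 1.74 for *Stab1* and 1.88 for *Cd163*, and without HC replicate 2 they were -0.39, -0.78 and -1.19, so the side on which CSD fell depended on which HC library was used. *Folr2* stood at 168, 76.4 and 58.8 scaled CPM, below both HC libraries, with a log2 fold change of -1.19 ± 0.45 that did not pass (unadjusted p = 0.0157 and adjusted p = 0.999 by edgeR). The share of low MHCII cells (43.9%, 19.0% and 28.1%) had the same order of libraries as the sums of *Mrc1*, *Stab1* and *Cd163*, but not of *Folr2*, and its part in the sums was not tested. Each class was also fitted alone.

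In the low MHCII class 6 of the 7 receptors were tested and 0 called, against 0.202% of 1984 genes (4 genes, *Mgp* and *Wfdc17* lower and *Ccl7* and *Ccl12* higher). The CSD library lay below both HC libraries for 3 receptors and above both for 2, where 34.8% and 31.8% of all genes did so. An unadjusted p under 0.05 was found for 2 of the 6 receptors and for 3.68% of genes. *Lyve1* stood at 438, 1063 and 284 scaled CPM, a log2 fold change of -1.21 ± 0.49 (edgeR, unadjusted p = 0.0142 and adjusted p = 0.708). *Folr2* stood at 364, 455 and 165 scaled CPM (-1.24 ± 0.55, unadjusted p = 0.0252 and adjusted p = 0.954), and *Cd163* at 249, 91.1 and 89.8 (-1.23 ± 0.71, adjusted p = 0.998). *Mrc1* stood at 846, 334 and 913 (0.46 ± 0.41, adjusted p = 0.998) and *Msr1* at 75.8, 60.7 and 105 (0.50 ± 0.77, adjusted p = 0.998), while *Stab1* at 670, 213 and 539 lay between the HC libraries (0.05 ± 0.44, adjusted p = 0.998). The folate and hyaluronan receptors thus had lower values in CSD and the mannose receptor did not, but none of these differences passed the threshold after adjustment over all genes tested. Without HC replicate 2, which had 15 cells of this class, the difference was -0.62 for *Lyve1*, -1.14 for *Folr2*, -1.45 for *Cd163* and 0.11 for *Mrc1*. Without HC replicate 1 it was -1.83, -1.38, 0.013 and 1.46. For *Cd163*, CSD and HC replicate 2 were thus nearly equal (89.8 and 91.1 scaled CPM, from 6 and 3 UMIs), and its difference rested on HC replicate 1.

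In the high MHCII class *Mrc1* and *Stab1* were tested and 0 were called, against 0.097% of 2062 genes (2 genes, *Mgp* lower and *Ccl12* higher). *Mrc1* stood at 198, 62.7 and 198 scaled CPM (0.40 ± 0.46, adjusted p = 0.999) and *Stab1* at 124, 31.4 and 107 (0.20 ± 0.53, adjusted p = 0.999). CSD replicate 1 differed little from HC replicate 1 in both genes, and HC replicate 2 was the low library. Without HC replicate 1 the differences were 1.61 and 1.68. Neither receptor had an unadjusted p under 0.05, where 4.07% of genes did. The difference of the CSD effect between the classes was tested as an interaction, in which 0 of 4 receptors were called against 0.0499% of 2004 genes (1 gene, *Ccl7*). An unadjusted p under 0.05 was found for 0 of the 4 and for 5.39% of genes. The largest of the 4 was *Cd163* at -1.73 ± 0.90 (unadjusted p = 0.0607 and adjusted p = 0.916), followed by *Folr2* at -1.40 ± 0.88 (adjusted p = 0.996); *Stab1* stood at -0.14 and *Mrc1* at 0.06.

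**Figure D5:**
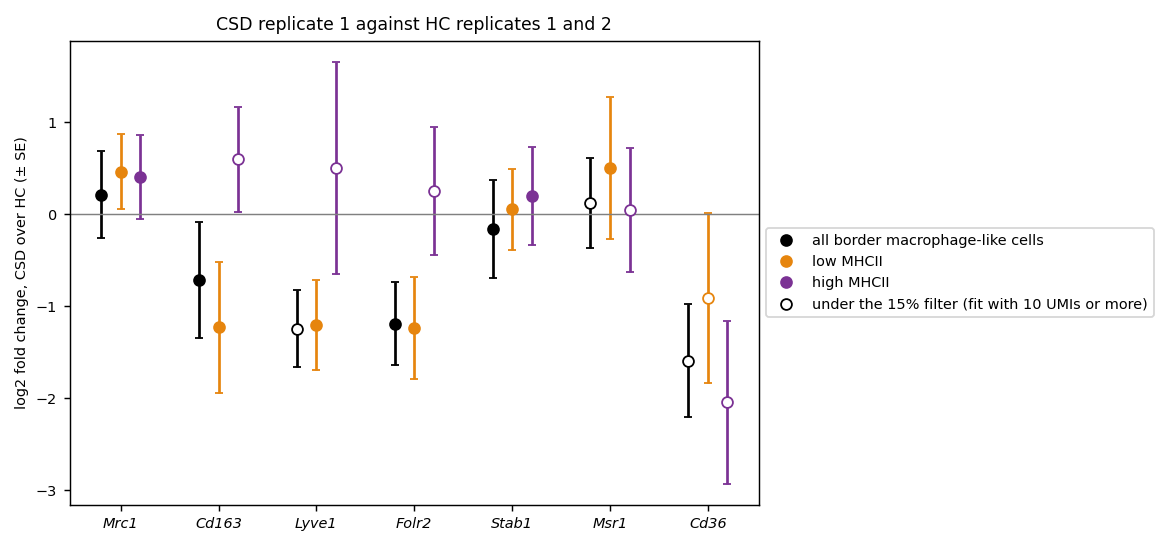
Log2 fold change of CSD over HC (y axis, ± SE) for each receptor in all border macrophage-like cells and in each MHCII class; open points are receptors under the 15% filter, from a fit of all genes with at least 10 UMIs. *Lyve1* and *Folr2* in the low class lie at -1.21 and -1.24, and no point passes the adjusted threshold.

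Receptors seen in too few cells for these fits were fitted with all genes of at least 10 UMIs. In all border macrophage-like cells *Lyve1* then had a log2 fold change of -1.25 ± 0.42 (adjusted p = 0.490), *Cd36* of -1.59 ± 0.61 (adjusted p = 0.736) and *Msr1* of 0.12 ± 0.49 (adjusted p = 0.998). In 12 other cell types with at least 20 cells in every library, *Mrc1* in cDC-like cells was the only receptor seen in over 15% of cells. It stood at 56.6, 25.1 and 26.6 CPM, a log2 fold change of -0.82 ± 0.61 (edgeR, adjusted p = 0.980), where 0.256% of the 28124 tests of all genes in those types passed.

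Over all kept cells *Mrc1*, *Stab1*, *Cd163* and *Msr1* had the same order of libraries as the share of border macrophage-like cells. *Lyve1*, *Folr2* and *Cd36* did not. *Mrc1* stood at 68.1, 7.05 and 16.2 CPM and *Stab1* at 61.9, 6.67 and 11.6 CPM, with these cells at 13.8%, 4.64% and 5.04%. For *Mrc1* and *Stab1* the HC libraries differed from each other more than either differed from CSD. In such sums fewer cells and less RNA per cell cannot be told apart. *Lyve1* stood at 25.9, 9.72 and 4.18 CPM and *Folr2* at 27.5, 5.34 and 3.55 CPM, both lowest in CSD replicate 1. *Cd36*, with 35.7% of its UMIs in border macrophage-like cells, stood at 12.2, 10.1 and 3.76 CPM.

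Other genes of the same functions were read from 2 lists. Of 42 other endocytic and scavenger receptors 41 were in the files and 14 were tested in border macrophage-like cells, with 0 higher and 0 lower in CSD and 1 at an unadjusted p under 0.05 (*Mgl2*, 0.71 ± 0.32); their median log2 fold change was 0.19 against -0.01 over all genes tested. The most counted were *Fcgr3* at 762, 608 and 983 CPM (0.54 ± 0.29, adjusted p = 0.999), an IgG Fc receptor, *Cd68* at 521, 418 and 558 CPM (0.26 ± 0.30), a lysosomal scavenger receptor, and *Cd14* at 443, 481 and 572 CPM (0.34 ± 0.29), a lipopolysaccharide co-receptor. These values were far closer between the HC libraries than those of *Mrc1* or *Stab1*. Of 22 genes that handle what the receptors take up, such as ferritin, heme oxygenase and lysosomal enzymes, 14 were tested, again with 0 in either direction, 0 at an unadjusted p under 0.05 and a median of 0.03. *Ftl1* at 10094, 8080 and 8955 CPM (0.01 ± 0.30) and *Fth1* at 8810, 8246 and 8866 CPM (0.09 ± 0.29) encode ferritin chains, have many near-identical copies and are uncertain for that reason. *Npc2*, which carries cholesterol out of lysosomes, stood at 1267, 1428 and 1358 CPM (0.04 ± 0.28). In the low against the high MHCII class, 7 of the 14 receptors of the list were higher and 1 lower in all 3 libraries, against 20.9% and 21.8% of the 2004 genes tested; of the 14 handling genes 5 were higher and 2 lower.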

How the data were processed

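The deposited files hold whole-number UMI counts (unit: counts) for every gene and barcode of the 3 libraries, which the authors made with Cell Ranger version 2 on mm10 (submitters' processing notes), with no normalization. Libraries were told apart by the number that ends each barcode, read as the group number in the labels; it is the same as the chip lane. A further CSD pool was lost at encapsulation and is not analysed here. 0 columns of per-sample values were left unused.

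Cells with at least 500 UMIs, a gene number within the study's limits and under 8.3% mitochondrial UMIs were kept. After log normalization and a mutual-nearest-neighbour correction, cells were clustered (leidenalg 0.10.2) without the 7 receptors and named from marker lists. Doublets were not removed in the main analysis; the top 5.1% of Scrublet scores (scanpy 1.11.5) were removed as an alternative. The UMIs of each cell type were added up within a library, and the sums were tested with edgeR 4.0.16 (TMM, glmQLFit and glmQLFTest, two-sided, R 4.3.3), in genes with a UMI in over 15% of the cells, with Benjamini-Hochberg adjustment over all genes tested and a threshold of 0.05. The design leaves 1 residual degree of freedom, and the test shares information on spread across genes. In simulated counts with 200 genes changed 4-fold, 93.5% were recovered in all border macrophage-like cells, 59.0% in the low and 69.5% in the high MHCII class, and 47.5% in the interaction. The counts were drawn with the same share for an unchanged gene in all libraries and a fixed dispersion. Gaps as wide as those of *Mrc1*, *Stab1* or *Cd163* between the HC libraries were not simulated. The recovered shares are therefore no measure of power for these receptors. DESeq2 1.42.0, RLE size factors, other filters and other clusterings were alternatives. Intervals and floors (3 counts) cover counting error only. Named were the 7 receptors, the 3 genes most like each, and in 2 gene lists those past the threshold and the 3 with the highest CPM; the genes called in each comparison are named as counts of 5 or fewer, after their values were seen. The receptors and lists were chosen with earlier results of these data known. The promoters of *Lyve1* and *Msr1* were not used here.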

Additional observations from a re-analysis of the deposited data

Results flagged for a closer look

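All 7 receptors had UMIs in barcodes of at most 100 UMIs, which the comparisons do not use. Over the 3 libraries there were 121 UMIs of *Mrc1*, 103 of *Stab1*, 42 of *Cd36*, 41 of *Folr2*, 38 of *Lyve1*, 30 of *Cd163* and 30 of *Msr1*, each above the 3 counts that a count of 0 allows. Their part in the levels within cell types was not tested beyond the subtraction of the expected free RNA.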

How the results depend on the processing

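No receptor passed the threshold under any alternative run in border macrophage-like cells, the MHCII classes, their interaction or the other cell types (smallest adjusted p 0.211). Of 112 log2 fold changes of receptors under settings that keep all libraries, 108 kept their direction; the others, all of uncalled values, were *Stab1* in the high class at -0.20 without the top Scrublet scores, *Mrc1* in the interaction at -0.10 with at least 10 UMIs over the sums and -0.21 with at least 1000 UMIs per cell, and *Stab1* in the interaction at 0.30 without the top Scrublet scores. Leaving out HC replicate 1 or 2 leaves 1 library against 1 and so a value with no test. In all border macrophage-like cells these values ran from -0.39 to 1.74 for *Mrc1*, -1.19 to 1.88 for *Cd163*, -0.78 to 1.74 for *Stab1* and -1.50 to -0.39 for *Folr2*. In the low class they ran from -1.45 to 0.013 for *Cd163*, -0.31 to 1.34 for *Stab1*, -1.83 to -0.62 for *Lyve1* and -1.38 to -1.14 for *Folr2*, and in the high class from -0.21 to 1.68 for *Stab1*. *Folr2* and *Lyve1* were lower in CSD with either HC library. In the low class CSD lay below both HC libraries for 3 of the 6 receptors tested and for 34.8% of all 1984 genes tested. That share was not counted in the fit of all border macrophage-like cells.

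The count of all genes called moved by over 1.5 times in many settings; the cause was not tested. In all border macrophage-like cells it was 5, but 0 with RLE size factors, 1 with DESeq2, 15 of 8399 genes with at least 10 UMIs over the sums, 0 with free RNA subtracted, 9 without the correction between libraries, 9 at Leiden resolution 2, 0 with the receptors kept in clustering and 1 at a mitochondrial limit of 5%. In the low class it was 4, but 0 with DESeq2, 0 with at least 10 UMIs, 13 with at least 1000 UMIs per cell, 0 without the top Scrublet scores and 13 with free RNA subtracted. In the high class it was 2, but 0 with RLE, 18 with at least 10 UMIs, 0 with at least 1000 UMIs per cell, 0 without the top Scrublet scores and 1 with free RNA subtracted. In the interaction it was 1, but 2 with RLE, 0 with DESeq2, 0 with at least 1000 UMIs per cell, 0 without the top Scrublet scores and 3 with free RNA subtracted.

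The low class had the highest mean for 6 receptors, and for 6 or 7 under every alternative run for it. Mean levels there were higher by over 1 SD when free RNA was subtracted, to 931 CPM for *Mrc1*, 414 for *Folr2*, 635 for *Stab1*, 104 for *Msr1* and 91.4 for *Cd36*. The number of receptors with a higher share of cells in the low class than in lymphocyte-like cells in all 3 libraries was 2 in the thinned draw, 7 by the average over all draws and 7 without thinning. No paired analysis was possible because nothing in the labels pairs an HC pool with the CSD pool.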
